A study of Ovis aries with 6 samples.

Results

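The 40 genes described here encode proteins of mitosis: the kinases and cyclins that start it, the kinetochore and spindle checkpoint, the chromosomal passenger complex, the spindle and the machinery of anaphase and cytokinesis, with kinesins left out except CENPE, the motor of the kinetochore. They were chosen by gene symbol, and they were put together after the difference between the plasma groups had been seen in these same libraries, so that difference is given as a description, and no count of calls on it is read as support. All 40 were found among the 18865 rows of the count table, and all 40 were among the 14326 genes that passed the filter on low counts. The cells were sheep mitral valve endothelial cells (VECs), which line the leaflets of the mitral valve, kept for 24 h in culture with sheep plasma. In 3 libraries the plasma came from naive sheep, and in 3 it came from sheep after a myocardial infarction (post-MI plasma). Both groups therefore received plasma, no library without plasma was analysed here, and the labels give no age, sex, plasma dose or time after infarction. Whether the 3 libraries of each group differ in plasma donor, cell donor or culture is not in the labels, so the spread between them may be technical.

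In resting cells the DREAM complex, which contains MuvB, represses most of these genes. Dividing cells switch them on late in the cycle through MuvB with MYBL2 and FOXM1. Many of the proteins peak at mitosis and are then destroyed through the anaphase-promoting complex (APC/C). Endothelial cells of an adult valve are mostly at rest, and growth in culture brings many of them back into the cycle. In RNA from a whole culture, fewer cells in mitosis and less RNA per mitotic cell cannot be told apart.

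Total counts were 14858472 to 20672794 per library. Levels are CPM, the counts scaled by the library total, and the lowest count of any of the 40 genes in any library was 15, so none was near the 3 counts used as the limit of detection (0.145 to 0.202 CPM). PECAM1 and CDH5, junction proteins that define endothelium, were present in every library at 880 to 1387 CPM and 889 to 1363 CPM. The leukocyte marker PTPRC was low, at 0.201, 0.344 and 0.145 CPM in naive and 0.640, 0.808 and 1.32 CPM in post-MI replicates 1, 2 and 3. It was higher in every post-MI library (log2 fold change 2.01 ± 0.54, SE), but on only 3 to 23 counts per library. Of the 3 leukocyte markers tested it alone was positive, while CD14 gave -0.20 ± 0.22 and CD68 -0.29 ± 0.24 (SE). Fibroblast and smooth muscle markers were also present, with summed levels over 9 and 7 genes of 8046 to 19686 and 911 to 4989 CPM in the naive libraries and 13513 to 18198 and 4494 to 6209 CPM in the post-MI libraries. Most of these sums came from COL1A1, COL1A2 and COL3A1 and from ACTA2, so they do not measure the share of each cell type. The remaining fibroblast markers lay between 2.16 (THY1) and 210 CPM (PDGFRB), and the remaining smooth muscle markers between 0 (RGS5) and 556 CPM (TAGLN). The summed level of 14 endothelial markers was 3109 to 3512 and 3238 to 4566 CPM, most of it from PECAM1 and CDH5. By gene, 12 of these 14 had a positive log2 fold change (median 0.53), beside 47.9% of all genes tested. In every post-MI library 3 were higher, beside 7.43% of all genes tested. In the tests given below, edgeR gave 5 of the 14 as higher at an unadjusted p under 0.05, beside 4.61%. DESeq2 called 1, beside 1.09%. All 6 tested smooth muscle markers were positive (median 0.76, or 0.50 without naive replicate 1 and 1.47 without naive replicate 2) with 1 non-overlapping. Of the 9 fibroblast markers 3 were positive (median -0.045) and 0 were non-overlapping. Naive replicate 1 had the lowest fibroblast and smooth muscle sums. Among the remaining markers, 9 leukocyte genes summed to 35.3 to 55.2 CPM in naive and 34.1 to 40.7 CPM in post-MI libraries, 4 lymphatic genes to 7.91 to 23.3 and 9.48 to 12.6 CPM, and 3 red cell and platelet genes to 4.93 to 5.37 and 3.45 to 5.87 CPM, with RGS5, ALAS2 and PPBP at 0 in all libraries. Their part in the results was not tested.

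The mitotic genes were higher with post-MI plasma almost without exception. Their summed level was 836, 732 and 537 CPM in naive replicates 1, 2 and 3, and 2163, 1571 and 1452 CPM in post-MI replicates 1, 2 and 3. The groups did not overlap, and naive replicate 3 was the lowest and post-MI replicate 1 the highest of the 6 libraries. All 40 genes had a positive log2 fold change (post-MI minus naive, on TMM-scaled counts), against 47.9% of all genes tested. Every post-MI library exceeded every naive library for 38 of the 40, against 7.43% of all genes tested, and the exceptions were AURKA and SPC25. The median log2 fold change was 1.46 over the 40 genes and -0.014 over all genes tested, with single genes between 0.30 and 2.35.

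By gene, edgeR's quasi-likelihood test over all 14326 genes with Benjamini-Hochberg adjustment called 0 higher (0% of genes tested) and 0 lower, and 0 of the 40. At an unadjusted p under 0.05 it gave 38 of the 40 as higher, beside 4.61% of all genes tested. limma-voom called 0 genes. The Wald test of DESeq2 called 31 of the 40 higher, beside 1.09% of the 14001 genes with an adjusted p, and 12 of the 40 when post-MI replicate 1 was left out, where it called 51 genes higher in all, against 152 with all libraries. None of these counts is evidence for the genes as a group, since they were put together from this difference.

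**Figure D1:**
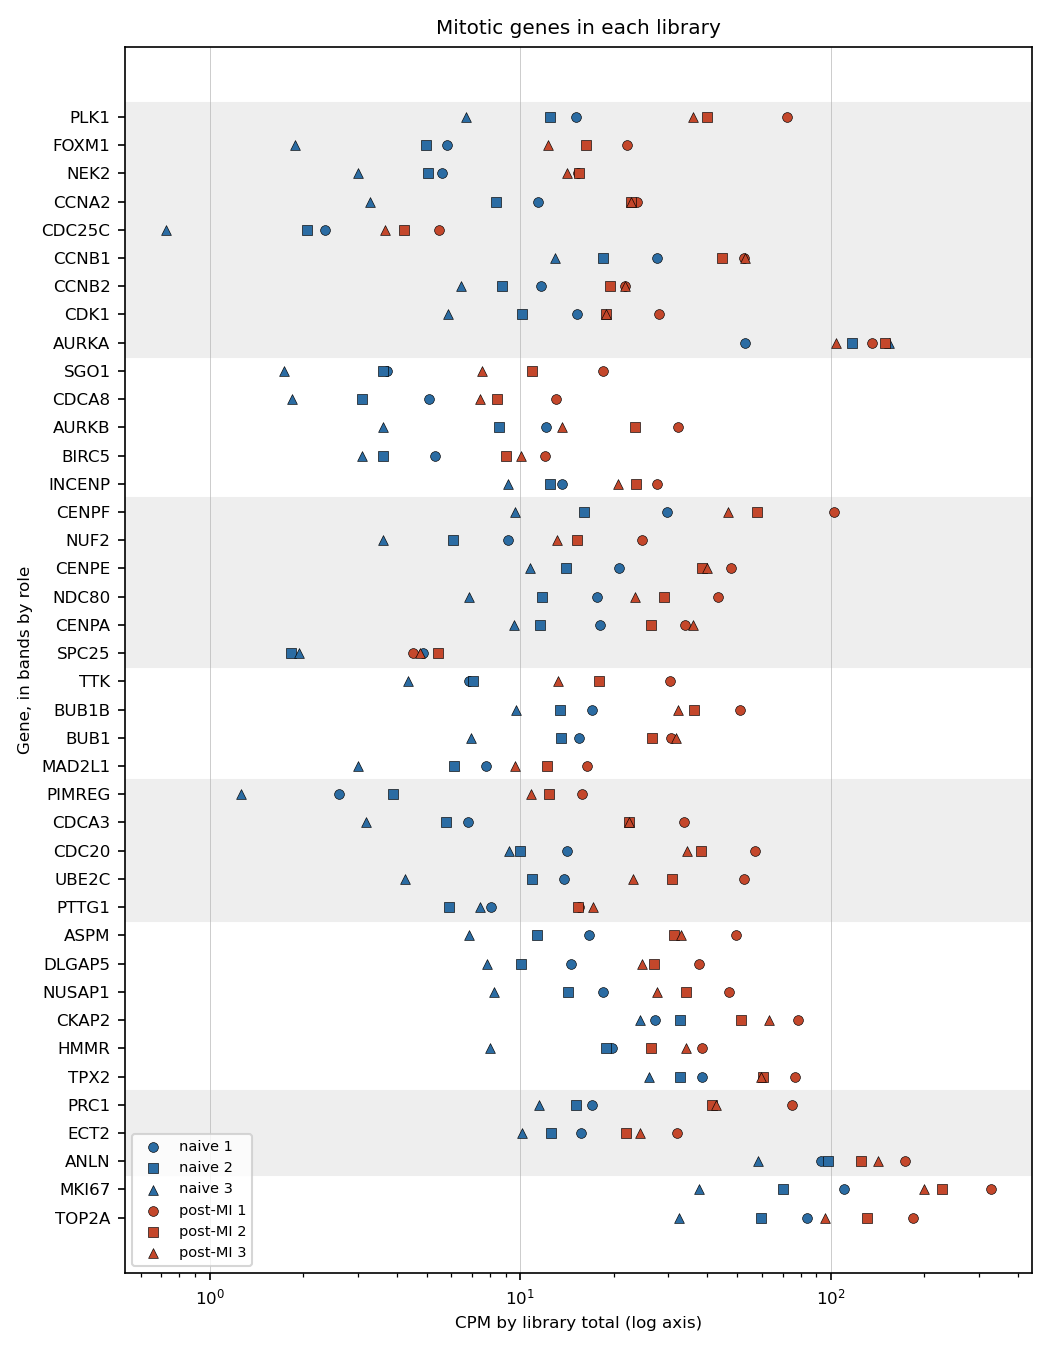
CPM of each of the 40 genes on a log axis, with 1 point per library (blue naive, red post-MI, shapes for replicates 1 to 3) and genes in shaded bands by role. The red points lie to the right of the blue points for every gene but AURKA and SPC25.

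Entry into mitosis is driven by CDK1 bound to its cyclins, with the kinase PLK1 in the loop that activates it. PLK1 was at 15.1, 12.4 and 6.68 CPM in the naive libraries and 72.4, 39.9 and 36.1 CPM in the post-MI libraries. Its lowest post-MI value was 2.39 times its highest naive value, and the log2 fold change was 2.13 ± 0.39 (SE). FOXM1, the transcription factor that switches on many of the other genes, was at 5.82, 4.99 and 1.89 CPM and at 22.1, 16.4 and 12.3 CPM, a log2 fold change of 2.02 ± 0.44 (SE). NEK2, a kinase that helps centrosomes to separate, was at 5.62, 5.04 and 3.00 CPM and at 15.4, 15.5 and 14.2 CPM, so the highest post-MI library was only 1.09 times the lowest.

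The 3 mitotic cyclins were close together among the post-MI libraries and spread among the naive ones. CCNA2, cyclin A2, was at 11.4, 8.37 and 3.29 CPM with naive plasma and 23.8, 22.7 and 22.8 CPM with post-MI plasma (1.60 ± 0.41, log2 fold change and SE). CCNB1, cyclin B1, was at 27.5, 18.5 and 13.0 CPM and at 52.8, 44.7 and 53.2 CPM (1.37 ± 0.27). For CCNB2, cyclin B2, the values were 11.6, 8.77 and 6.43 CPM and 21.8, 19.5 and 21.8 CPM (1.25 ± 0.24). Their partner CDK1 was at 15.3, 10.1 and 5.85 CPM and at 28.0, 19.0 and 18.8 CPM, so naive replicate 1 came close to the lower post-MI libraries (1.09 ± 0.36). CDC25C, the phosphatase that activates CDK1, was at 2.36, 2.06 and 0.726 CPM and at 5.49, 4.24 and 3.68 CPM (1.40 ± 0.45).

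AURKA, the centrosome kinase that activates PLK1, did not share this pattern. It was at 53.2, 117 and 154 CPM in naive replicates 1, 2 and 3 and at 136, 150 and 104 CPM in post-MI replicates 1, 2 and 3, so the groups overlapped, and the naive library that was lowest for 37 of the 40 genes was the highest of all for AURKA. The log2 fold change was 0.30 ± 0.36 (SE), and -0.018 without naive replicate 1. TPX2, the spindle protein that binds and activates the AURKA protein, was at 38.5, 32.7 and 26.0 CPM and at 77.1, 60.8 and 59.9 CPM (1.05 ± 0.19). In the RefSeq gene order of the sheep assembly ARS-UI_Ramb_v3.0, AURKA lies between CSTF1 and FAM210B. FAM210B, which encodes a mitochondrial protein, was at 22.5, 62.8 and 78.2 CPM and at 59.8, 69.1 and 51.7 CPM, so the ratio of AURKA to FAM210B stayed between 1.86 and 2.36 in all 6 libraries, while CSTF1 was at 16.0 to 23.6 CPM. AURKA and FAM210B were set side by side after their values were seen. How the counting treated strand and gene borders is not stated in the labels, so the AURKA row is uncertain, and whether it holds reads of a neighbour was not tested.

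**Figure D2:**
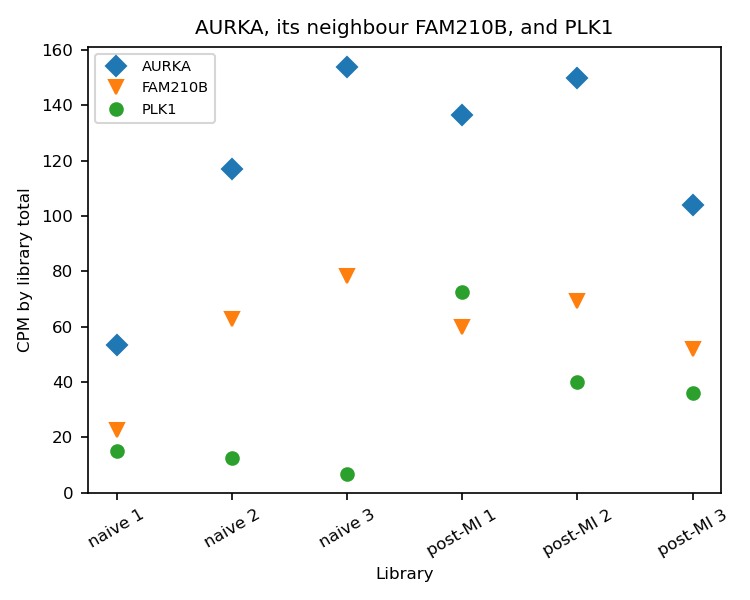
CPM of AURKA, its neighbour FAM210B and, for comparison, PLK1 in each of the 6 libraries on a linear axis from 0. AURKA and FAM210B are both lowest in naive replicate 1 and highest in naive replicate 3, where PLK1 is at its lowest.

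The neighbours of the mitotic genes in that gene order were summarised by log2 fold change and by overlap between the groups. No ratio per library was computed for genes other than AURKA. Among 49 neighbouring protein-coding genes that passed the count filter and were not themselves among the 40 (found for 33 of them, CSTF1 and FAM210B included), the median log2 fold change was -0.05 and 22 were positive, beside 47.9% of all genes tested. Every post-MI library exceeded every naive library for 3 of the 49, beside 7.43% of all genes, and 3 were lower in every post-MI library. The 49 include the centromere genes OIP5 (log2 fold change 1.31, among the higher ones) and CENPH (0.04), so they are not free of mitotic genes. Reads were counted on another build, Oar_v3.1, so the neighbours there, also those of AURKA, may differ.

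The chromosomal passenger complex, which corrects faulty attachments of chromosomes to the spindle, is made of the kinase AURKB and the subunits INCENP, BIRC5 (survivin) and CDCA8 (borealin). All 4 were higher in each post-MI library. AURKB was at 12.1, 8.54 and 3.63 CPM with naive and 32.3, 23.4 and 13.7 CPM with post-MI plasma, where the gap between naive replicate 1 and post-MI replicate 3 was the narrowest of the 38 genes at 1.13 times (log2 fold change 1.53 ± 0.48, SE). INCENP, the scaffold, was at 13.6, 12.4 and 9.14 CPM and at 27.7, 23.7 and 20.7 CPM (1.05 ± 0.21). BIRC5 gave 1.39 ± 0.26 and CDCA8 1.54 ± 0.41 as log2 fold changes with SE. SGO1, shugoshin, which shields the cohesin that holds sister chromatids together, was at 3.72, 3.61 and 1.74 CPM and at 18.5, 10.9 and 7.53 CPM (2.04 ± 0.43), a 4.12-fold difference.

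At the kinetochore, the protein plate by which chromosomes grip microtubules, 5 of 6 genes did not overlap between the groups. CENPF, a large protein of the outer plate, was at 29.8, 16.1 and 9.63 CPM and at 103, 57.9 and 46.7 CPM (log2 fold change 1.92 ± 0.47, SE). CENPE, the kinetochore's own motor, was at 20.9, 14.1 and 10.7 CPM and at 48.0, 38.6 and 39.9 CPM (1.49 ± 0.26), and CENPA, the histone variant that marks the centromere, gave 1.31 ± 0.26. In the NDC80 complex, the main microtubule grip, SPC25 differed from the other subunits. NDC80 was at 17.7, 11.8 and 6.87 CPM and at 43.5, 29.1 and 23.4 CPM (1.42 ± 0.38), and its partner NUF2 gave 1.51 ± 0.39. SPC25, a subunit of the same complex, was at 4.87, 1.83 and 1.93 CPM and at 4.53, 5.45 and 4.77 CPM, so naive replicate 1 lay within the post-MI range. Its log2 fold change was 0.79 ± 0.41 (SE) with all libraries and 1.41 without naive replicate 1, on 32 to 97 counts per library. SPC24, a subunit outside the 40 named after its values were seen, was at 5.42, 4.18 and 1.93 CPM with naive plasma. With post-MI plasma it was at 12.7, 9.02 and 8.50 CPM, higher in every library (log2 fold change 1.41 ± 0.39, SE).

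The spindle checkpoint holds back anaphase until every chromosome is attached. Its 4 genes here were all higher in each post-MI library. BUB1B (BUBR1, part of the complex that inhibits the APC/C) was at 17.0, 13.4 and 9.67 CPM and at 51.3, 36.2 and 32.3 CPM (log2 fold change 1.60 ± 0.27, SE). TTK (MPS1, the kinase at the head of the checkpoint) was at 6.83, 7.05 and 4.35 CPM and at 30.4, 17.9 and 13.2 CPM (1.77 ± 0.36). BUB1 gave 1.32 ± 0.30, and MAD2L1, the checkpoint protein MAD2, gave 1.19 ± 0.38 with only a 1.24-fold step from the highest naive to the lowest post-MI value.

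The 5 genes grouped as partners and substrates of the APC/C had a median log2 fold change of 1.98, the highest of the 8 role groups. CDCA3, which takes part in destroying the kinase WEE1 at mitotic entry, was at 6.78, 5.79 and 3.19 CPM and at 33.6, 22.4 and 22.5 CPM. Its lowest post-MI value was 3.31 times its highest naive value, the widest gap of the 40, and its log2 fold change was 2.33 ± 0.32 (SE). PIMREG, a protein of mitotic cells that binds the clathrin adaptor CALM, was at 2.61, 3.90 and 1.258 CPM and at 15.8, 12.4 and 10.9 CPM (2.35 ± 0.41). CDC20, the activator that directs the APC/C in mitosis, was at 14.2, 9.97 and 9.24 CPM and at 57.2, 38.3 and 34.5 CPM (1.98 ± 0.26). UBE2C, its ubiquitin-conjugating enzyme, gave 1.89 ± 0.48. PTTG1, securin, the inhibitor of separase, was at 8.03, 5.90 and 7.45 CPM and at 15.5, 15.4 and 17.2 CPM (1.19 ± 0.17). It had the smallest SE of the 40, and naive replicate 3 was not its lowest library.

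Spindle proteins differed between the groups by 1.05 to 1.72 on the log2 scale, and all 6 were non-overlapping. ASPM, which organises spindle poles, was at 16.6, 11.3 and 6.87 CPM and at 49.4, 31.3 and 33.0 CPM. CKAP2, a microtubule-binding protein, was at 27.2, 32.8 and 24.4 CPM and at 78.2, 51.6 and 63.3 CPM. Log2 fold changes were 1.49 ± 0.28 for DLGAP5, 1.43 ± 0.33 for NUSAP1 and 1.10 ± 0.35 for HMMR (SE), proteins that bundle or anchor spindle microtubules.

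Among genes of cytokinesis, PRC1, which bundles the microtubules of the central spindle, stood higher than the others in its difference. It was at 17.1, 15.2 and 11.5 CPM and at 74.8, 41.4 and 42.6 CPM, a log2 fold change of 1.88 ± 0.28 (SE). ECT2, which turns on RhoA at the division plane, was at 15.7, 12.6 and 10.2 CPM and at 32.1, 21.9 and 24.4 CPM (1.05 ± 0.23). ANLN, anillin, which links the contractile ring to the membrane, was at 93.4, 97.7 and 58.5 CPM and at 174, 125 and 142 CPM, and its 0.84 ± 0.24 was the lowest log2 fold change among the 38 non-overlapping genes.

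The proliferation marker MKI67, which coats mitotic chromosomes, was at 110, 70.3 and 37.8 CPM in the naive libraries and 328, 229 and 199 CPM in the post-MI libraries (log2 fold change 1.81 ± 0.40, SE). TOP2A, the topoisomerase that untangles sister chromatids, was at 84.0, 59.8 and 32.4 CPM and at 184, 131 and 96.2 CPM (1.24 ± 0.38). For TOP2A the step from naive replicate 1 to post-MI replicate 3 was 1.15-fold, so a single library on each side nearly closed the gap.

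**Figure D3:**
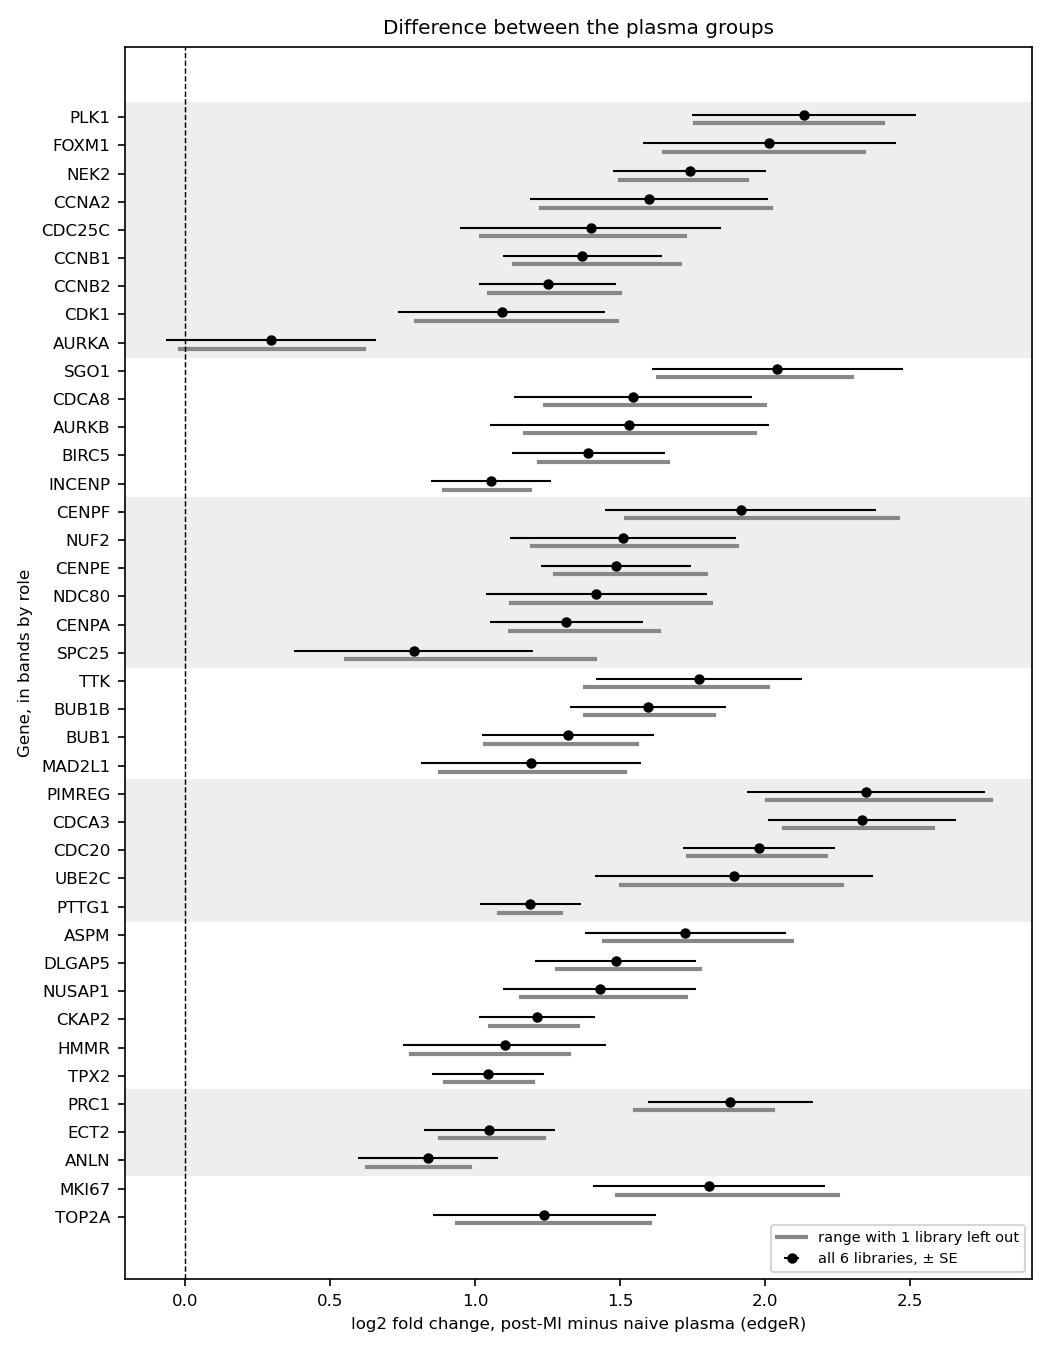
Log2 fold change (post-MI minus naive plasma) of each gene, as a black point with its SE from all 6 libraries, and as a grey bar for the range when any 1 library is left out. AURKA alone reaches 0, and the lowest of the other 39 is SPC25 at 0.56.

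The libraries of a group were not alike, and the genes moved together in those differences too. Naive replicate 1 was the highest naive library for 35 of the 40 genes and naive replicate 3 the lowest for 37. The highest naive value was a median of 2.23 times the lowest, from 1.35 times in CKAP2 to 3.48 times in CCNA2. Among the post-MI libraries that ratio had a median of 1.51, and replicate 1 was the highest for 33 genes. For each gene but AURKA, the deviations of the 6 libraries from their group means were set against the mean deviation of the other genes (AURKA left out), and Pearson's r had a median of 0.95, with 22 of 39 above 0.9. This r rests on 6 values that share their libraries and depth and sum to 0 within each group. It is given as a description, with no value over all genes beside it. For PTTG1 it was -0.07, for SPC25 and CKAP2 0.56, and for AURKA -0.67.

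**Figure D4:**
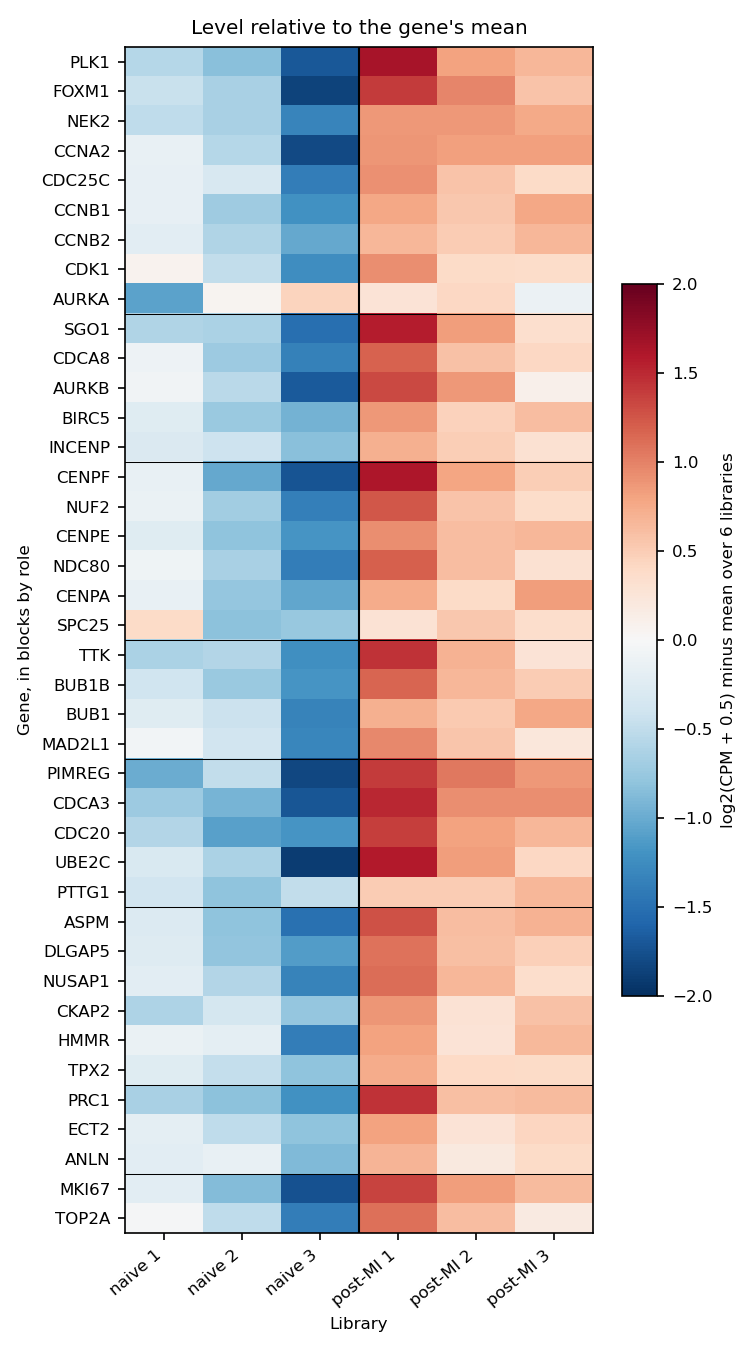
Level of each gene in each library, as log2(CPM + 0.5) minus the gene's mean over the 6 libraries (red above, blue below), with a vertical line between naive and post-MI libraries and blocks by role. Naive replicate 3 is the darkest blue column and post-MI replicate 1 the darkest red, while AURKA is above its mean in naive replicate 3.

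Other genes of the cell cycle were read from lists drawn up with earlier results of these data known, with up to 3 genes named per list by their mean CPM unless said otherwise. In each of these lists edgeR and limma-voom called 0 genes over all genes tested. The counts in each list are to be read beside the shares over all genes. Of 14326 genes tested, 7.43% were higher in every post-MI library and 1239 genes were lower in every one. At an unadjusted p under 0.05 edgeR gave 4.61% as higher, and DESeq2 called 1.09% of 14001 genes higher. The 12 mitotic kinesins, the motors that move chromosomes and spindle poles, were all positive and non-overlapping (median log2 fold change 1.49, 12 at an unadjusted p under 0.05, 10 called by DESeq2). KIF11, which pushes spindle poles apart, was at 24.4, 32.0 and 22.7 CPM and at 99.9, 72.6 and 65.0 CPM, KIF20A gave a log2 fold change of 1.58 ± 0.38 and KIF23 of 1.48 ± 0.40 (SE).

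Further kinetochore and centromere genes were mixed. Of 32 tested, 29 were positive, 17 were higher in every post-MI library and 1 lower, the median log2 fold change was 0.65, 16 had an unadjusted p under 0.05 (all higher) and DESeq2 called 8. BUB3, which also serves outside mitosis, was at 95.2, 93.7 and 96.0 CPM and at 102, 92.5 and 94.2 CPM, so the groups overlapped. ZW10, with a second role in membrane traffic, gave a log2 fold change of -0.14 ± 0.12 and CENPC 0.24 ± 0.15 (SE).

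Subunits and regulators of cohesin and condensin had a median log2 fold change of 0.61 over 19 genes, with 11 higher in every post-MI library, 1 lower, 10 at an unadjusted p under 0.05 and 7 called by DESeq2. Separated after the values were seen, the 8 subunits of condensin, which compacts mitotic chromosomes, were all non-overlapping and higher (median 0.90). The 5 ring and STAG subunits of cohesin, which is present through interphase, had 1 higher and 1 lower (median -0.03), with SMC3 at 103 to 116 CPM in all libraries, RAD21 at 0.30 ± 0.14 and STAG2 at -0.26 ± 0.13 (log2 fold change, SE). The regulators of cohesin, named here after their values were seen, were mixed. CDCA5 (1.48 ± 0.46) and ESPL1 (1.16 ± 0.28) were higher in every post-MI library. WAPL, PDS5A, PDS5B and NIPBL overlapped, with log2 fold changes from -0.27 to 0.08.

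Genes of DNA replication and the G1/S step, which act in the cycle before mitosis, differed less between the groups. Of 33, 31 were positive, beside 47.9% of all genes tested, and the median log2 fold change was 0.41. In every post-MI library 12 were higher, beside 7.43% of all genes. At an unadjusted p under 0.05 there were 4, all higher, beside 4.61% of all genes, and DESeq2 called 0. Without naive replicate 3, 21 were positive and 12 negative, with a median of 0.26. The mean level of these 33 genes, as log2(CPM + 0.5), was 4.04, 3.96 and 3.30 in the naive and 4.10, 4.19 and 4.14 in the post-MI libraries, so naive replicates 1 and 2 lay near the post-MI libraries. The same mean over the 40 mitotic genes was 3.86, 3.55 and 2.92 and 5.22, 4.78 and 4.68. The mitotic mean minus the replication mean was therefore -0.18, -0.41 and -0.38 with naive plasma and 1.12, 0.59 and 0.54 with post-MI plasma. On this difference naive replicate 3 lay between the other naive libraries, and the groups did not overlap. The mitotic genes were put together from this contrast, so a gap between the groups is built into their choice. No test is given and nothing is concluded from the gap. The replication helicase subunits MCM7 and MCM6 gave log2 fold changes of 0.45 ± 0.16 and 0.09 ± 0.19, and the ribonucleotide reductase subunit RRM1 gave 0.27 ± 0.14 (SE).

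**Figure D5:**
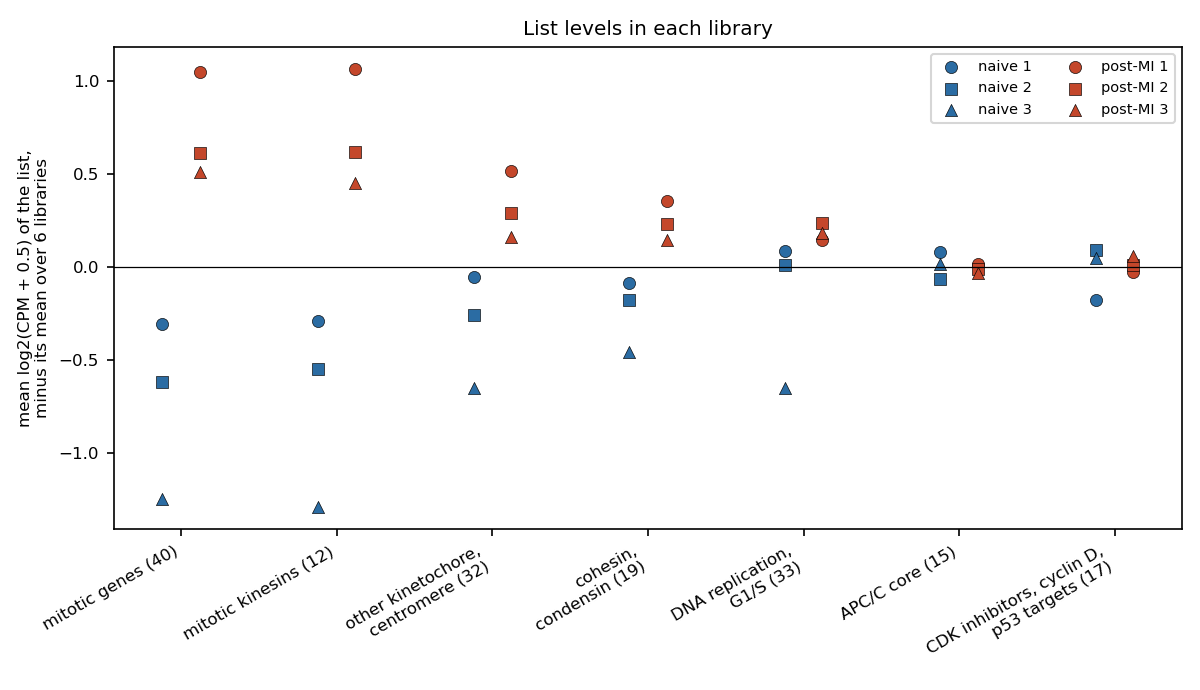
Mean log2(CPM + 0.5) of each list in each library minus its mean over the 6 libraries, with the number of genes in brackets (blue naive, red post-MI, shapes for replicates). Of the lists plotted, mitotic genes and kinesins separate the groups most, the replication list sets naive replicate 3 apart from the other 5 libraries, and APC/C core genes lie near 0.

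The core subunits of the APC/C, a stable complex, were listed together with its activator FZR1, and this list differed little. Of 15 genes 6 were positive and 9 negative, 2 were higher and 1 lower in every post-MI library, the median log2 fold change was -0.0088 (0.037 without naive replicate 1), 2 had an unadjusted p under 0.05 (both higher) and DESeq2 called 0. FZR1, the CDH1 activator that takes over from CDC20 at mitotic exit, was 1 of the 2 higher genes and had the largest log2 fold change of the list (0.47 ± 0.15, SE). It was at 51.1, 63.7 and 57.7 CPM and at 86.0, 76.7 and 72.0 CPM. Of the core subunits, ANAPC7 gave a log2 fold change of 0.01 ± 0.15 and ANAPC1 0.19 ± 0.13 (SE).

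Of 13 DREAM, MuvB and pocket protein genes, the regulators of this programme, 8 were positive, 2 were higher and 1 lower in every post-MI library, the median was 0.10 (0.037 with naive replicate 3 left out and 0.17 with post-MI replicate 3 left out), 1 had an unadjusted p under 0.05 and DESeq2 called that 1. It was MYBL2 (B-MYB), which joins MuvB to switch on mitotic genes, at 37.1, 34.2 and 16.5 CPM and at 98.1, 75.3 and 66.8 CPM (log2 fold change 1.47 ± 0.33, SE). RBBP4, a histone-binding subunit, gave -0.17 ± 0.12 and the pocket protein RBL2 -0.06 ± 0.26 (SE).

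Among 14 genes of mitotic phosphatases and exit, 10 were positive, 2 were higher in every post-MI library, the median was 0.19, 3 had an unadjusted p under 0.05 and DESeq2 called 1. PPP1CC gave a log2 fold change of 0.21 ± 0.14, ARPP19 of -0.12 ± 0.15 and PPP2R5C of -0.02 ± 0.14 (SE).

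CDK inhibitors, D cyclins and p53 targets, which brake or license the cycle in G1, had no common direction. Of 17 tested, 10 were positive and 7 negative, 2 were higher in every post-MI library, the median was 0.16 (0.11 with post-MI replicate 3 left out and 0.35 with naive replicate 2 left out), 1 had an unadjusted p under 0.05 and DESeq2 called 0. CCND1, cyclin D1, was at 372, 518 and 498 CPM and at 202, 277 and 562 CPM, so post-MI replicate 3 exceeded every naive library. MDM2 and BAX gave log2 fold changes of -0.17 ± 0.21 and -0.46 ± 0.38 (SE). CDKN1A, the inhibitor p21, named here after its values were seen, was at 64.7, 50.5 and 79.4 CPM and at 17.8, 28.9 and 69.4 CPM. Its post-MI replicate 3 thus lay among the naive libraries, and its relation to the mitotic genes was not tested.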

How the data were processed

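Messenger RNA was sequenced with a stranded kit, per the labels' protocols. The authors' tools were DESeq2 1.26.0, featureCounts 2.0.0, SAMtools 1.9 and STAR 2.5.2b on the build Oar_v3.1, per the submitters' processing notes. The deposited table holds raw counts per gene symbol. The deposited per-library files hold a signal equal to these counts over 1 factor per library (100% of values above 0 within 0.01%), apart from 1 gene (MYCN) at a count of 0 in naive replicate 1, so they were used as a check alone.

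Genes were filtered with filterByExpr (minimum count 10, total 15), scaled by TMM and tested with edgeR 4.0.16 (R 4.3.3), adjusting at 0.05 over all genes. The SE of a log2 fold change is its size divided by the root of F. CPM use library totals, and means of lists use log2(CPM + 0.5). Alternatives were DESeq2 1.42.0, limma-voom (limma 3.58.1), other scalings and filters, leaving out each library, and a block for the replicate number. TMM-scaled CPM and DESeq2 with libraries left out were added after seeing the data. The fit was tested on simulated data. The genes and lists were chosen with earlier results of these data known. Of each other cell cycle list, up to 3 genes with the highest mean CPM are named, apart from genes marked as named after their values were seen. Promoter and protein sequences were not analysed here.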

Additional observations from a re-analysis of the deposited data

How the results depend on the processing

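The sign of each of the 40 log2 fold changes, and the count of 38 genes higher in every post-MI library, were recomputed under each alternative that gives them. The count stayed at 38 or 39 (38 on TMM-scaled CPM, where 8.33% of all genes were higher in every post-MI library, and 39 without naive replicate 1). With a library left out fewer values are compared, and no share over all genes is given for those counts. The positive signs numbered 40 in all settings but 1, where AURKA gave -0.018 (without naive replicate 1, and up to 0.62 without naive replicate 3). The median log2 fold change was 1.21 without naive replicate 3, the lowest, and 1.79 without naive replicate 1, the highest, and it was 1.49 without AURKA. Genes called numbered 218 with the DESeq2 Wald test on all libraries (152 higher, 66 lower) and 0 in each edgeR and limma-voom setting, and leaving out 1 library in edgeR gave 0 each time. DESeq2 called 12 to 39 of the 40 with 1 library left out (12 without post-MI replicate 1, 23 without post-MI replicate 2), where it called 51 to 235 genes higher in all (51 and 73 in those fits) and 8 to 156 lower. With the replicate block the median was 1.51 and 0 genes were called. Same-numbered libraries had deviations from their group means that correlated over genes at 0.15, -0.12 and 0.08 for replicates 1, 2 and 3, and the labels tie no numbers across groups, so the numbers were not read as pairs. With 1 library left out, list medians had both signs for APC/C core genes (-0.080 to 0.037), leukocyte markers (-0.33 to 0.037) and fibroblast markers (-0.26 to 0.18); the first 2 were positive only without naive replicate 1, and the last only without naive replicate 2 or 3. The cause was not tested. Alternative tests do not apply to the count of non-overlapping genes, which comes from CPM alone. With 3 libraries against 3, an exact permutation test of 1 value cannot go below 0.1.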
